A study of Schizosaccharomyces japonicus with 2 samples.

Results

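Supercontigs 6 and 7 are short pieces of the assembly of the fission yeast Schizosaccharomyces japonicus, 75435 and 29126 bases long up to their last mapped base. Their small RNA was taken as every mapped read of 21 to 28 nt listed on them, and a member was a distinct start, end and strand. Supercontig 6 held 4426 members in replicate 1 and 13280 in replicate 2, and supercontig 7 held 5171 and 17169. Together these were 34663 of the 594345 distinct positions found in either library. The members were chosen by place alone, without regard to their read numbers.

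The series has 1 group of 2 small-RNA libraries, from log-phase cells of the wild-type strain yFS275, and no other genotype or treatment. The labels' protocols describe adapters ligated to RNA that carries a 5′ monophosphate and a 3′ hydroxyl, and other RNA ends were not sampled. The labels call the libraries replicates without naming separate cultures, and their spread may be technical. With 2 libraries and no second group, no exact test over libraries can reach a p of 0.05. Differences between the supercontigs are therefore set beside the spread of the libraries and beside exact (Clopper-Pearson) 95% intervals, which cover counting error only, since PCR copies of a molecule are counted as reads.

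In fission yeasts, Dicer cuts long double-stranded RNA into duplexes of small interfering RNA. Argonaute then carries a strand of each duplex to matching transcripts. In Schizosaccharomyces pombe this pathway is best known for silencing the repeats beside centromeres through methylation of histone H3. In S. japonicus small RNA is known to map to retrotransposons, which gather near centromeres and telomeres. Reads on both strands, a narrow span and short 3′ overhangs are the usual marks of Dicer products, while breakdown of a long RNA gives reads of its own strand in many lengths. The deposited lists hold positions and no bases, and no gene annotation of their assembly was used here, so what supercontigs 6 and 7 encode was not analysed here.

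The libraries held 889190 and 2457514 reads of 21 to 28 nt outside a dense region of 1 strand at the start of supercontig 3 (its first 37000 bases). Densities in reads per 1000000 (RPM) are scaled to these totals, which differ 2.76-fold. Supercontig 6 held 26658 and 78877 reads, or 2.998% and 3.21% of them. Supercontig 7 held 10872 and 81774 reads, or 1.22% and 3.33%. A mapping score of 0 was taken to mark sequences with several equally good places, of which the list gives 1. The files may place such a sequence differently, so single positions with a score of 0 are less certain than sums over a region.

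Small RNA on supercontig 7 was spread over much of its length, and on supercontig 6 it lay in islands. Reads of either library covered 79.6% of the bases of supercontig 7 and 38.6% of those of supercontig 6. In replicate 2, the deeper library here, both strands were covered over 59.7% of supercontig 7 and 20.1% of supercontig 6, and in replicate 1 over 32.3% and 9.10%. On supercontig 6 no read of either library lay on bases 5732 to 30158, a stretch of 24427 bases, or on bases 54218 to 64320, a stretch of 10103 bases. The longest stretch without reads on supercontig 7 ran from base 18359 to 22189 and was 3831 bases long. Whether such stretches hold sequence or gaps of the assembly was not tested.

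Windows of 1 kb, assigned by the leftmost base of a read, were called dense at 100 RPM or more in each library. Of 40 windows with reads on supercontig 6, 26 were dense (65%), as were 20 of 27 on supercontig 7 (74.1%), against 5.92% of the 10234 windows outside the dense region of supercontig 3, 91.7% on supercontig 5 and 59.1% on supercontigs 8 to 30. Windows without reads are left out of each of these shares, so the long empty stretches of supercontig 6 do not lower its share. Both-strand windows, with 10% or more of their reads on the minor strand in each library, were 20 of the 26 dense windows of supercontig 6 (76.9%) and 18 of the 20 of supercontig 7 (90%), against 74.9% of all dense windows, 90.9% of those on supercontig 5 and 79.2% on supercontigs 8 to 30. Dense windows with under 1% on the minor strand in both libraries, 6.77% of all dense windows and 1.98% of those on supercontigs 8 to 30, numbered 0 on each of these supercontigs. Most reads lay on the minus strand in both libraries in 19 of the 20 dense windows of supercontig 7 and in 15 of the 26 of supercontig 6, while on supercontig 6 another 5 had most on the plus strand in both. Windows of other supercontigs were not counted by their major strand, so how common this is was not measured. Summed over all reads, the plus strand held 58.3% and 57.7% on supercontig 5 and 40.99% and 38.9% over supercontigs 8 to 30. The share of both-strand windows thus lay near that of all dense windows on supercontig 6, and on supercontig 7 it was as high as on supercontig 5.

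**Figure D1:**
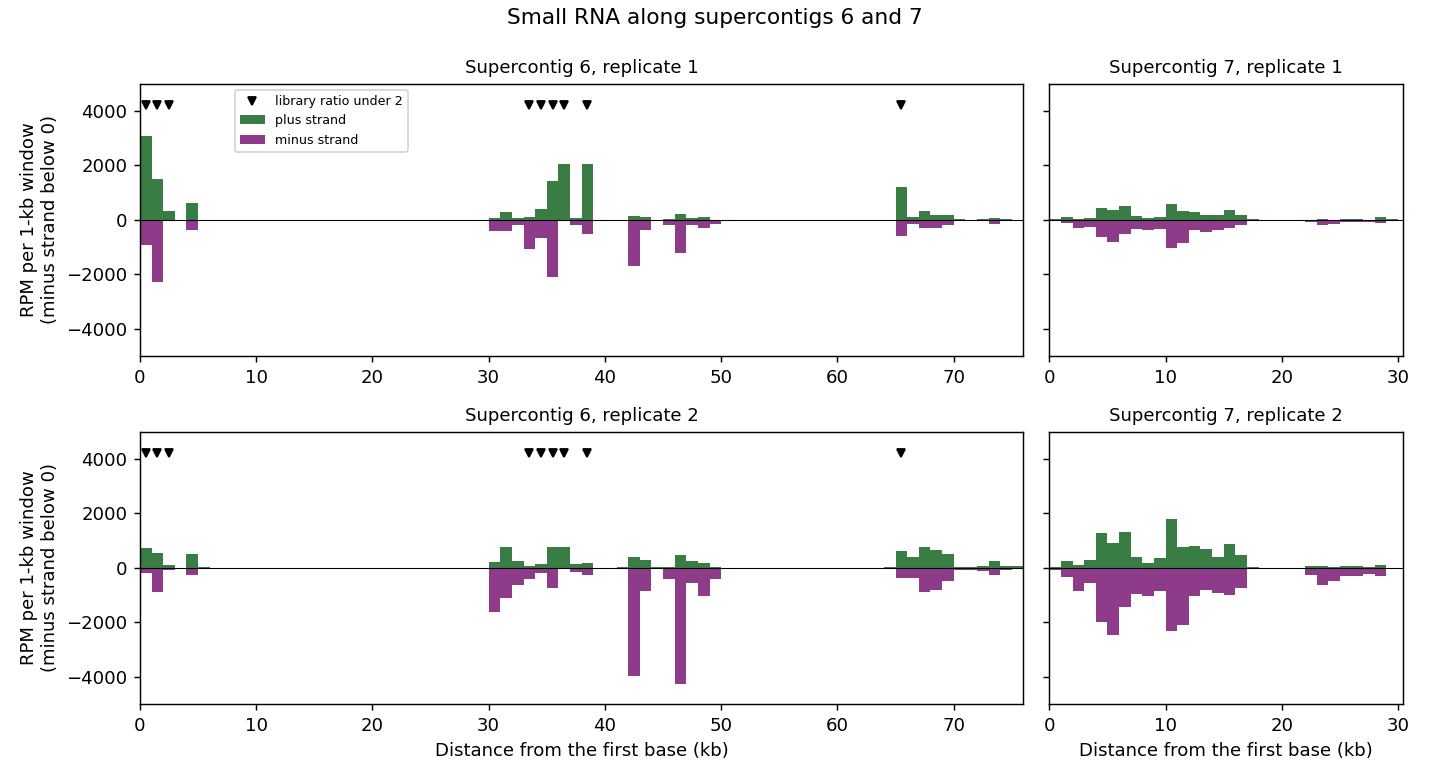
RPM in windows of 1 kb on the plus strand (above 0) and the minus strand (below 0) by distance from the first base, for supercontigs 6 and 7 in each library; triangles mark the 9 dense windows with fewer than 2 reads in replicate 2 for each read in replicate 1. Supercontig 6 shows islands between stretches without reads, and in replicate 1 the marked windows hold its highest bars, while supercontig 7 has a long filled stretch and a shorter one behind a gap, at like relative heights in both libraries (r = 0.98 over 27 windows).

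The density of supercontig 7 relative to supercontig 6 depended on the library. Supercontig 6 held 353 and 1046 reads per kb, and supercontig 7 held 373 and 2808. The ratio of 7 over 6 was 1.06 in replicate 1 and 2.69 in replicate 2, or 1.87 ± 1.15 (SD, n = 2), so the difference in read density was within the spread of the libraries. Over bases that carried any read the ratio was 0.512 and 1.30, with a mean of 0.906, so its direction was not the same by that measure. Distinct positions gave a steadier answer. There were 58.7 and 176 positions per kb on supercontig 6 and 178 and 589 on supercontig 7, a ratio of 3.03 and 3.35.

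Reads with a mapping score above 0, which have a single best place, gave nearly the same ratio in both libraries. These reads numbered 741 and 5538 on supercontig 6, or 9.82 and 73.4 per kb, and 2958 and 22131 on supercontig 7, or 102 and 760 per kb. Supercontig 7 thus had 10.3 times the density of supercontig 6 in replicate 1 and 10.4 times in replicate 2. How many bases of each supercontig can hold a read with a single place was not measured, and it cannot be told apart here from how much RNA each gave. Replicate 2 held 7.47 times as many of these reads as replicate 1 on supercontig 6 and 7.48 times as many on supercontig 7.

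Reads with several possible places were more frequent on supercontig 6. They made up 97.2% of its reads in replicate 1 (interval 97.0 to 97.4) and 93.0% in replicate 2 (92.8 to 93.2), or 95.1% ± 2.999 (SD, n = 2). On supercontig 7 they made up 72.8% (71.9 to 73.6) and 72.9% (72.6 to 73.2), or 72.9% ± 0.102. The difference of 7 minus 6 was −24.4 and −20.04 percentage points, larger than the spread of the libraries on either supercontig. For comparison the share was 41.3% and 41.7% on supercontig 5 and 85.3% and 84.9% over supercontigs 8 to 30. Along supercontig 7 the share was uneven. It stayed under 50% in both libraries in 3 dense windows and reached 95% in both in 8 of the 20, while 18 of the 26 dense windows of supercontig 6 reached 95% in both and 0 were under 50% in both. Windows of other supercontigs were not counted in this way.

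The strands were balanced differently in the libraries on supercontig 6 and alike on supercontig 7. The plus strand held 49.7% of the reads of supercontig 6 in replicate 1 (interval 49.1 to 50.3) and 32.6% in replicate 2 (32.3 to 32.9), or 41.1% ± 12.1 (SD, n = 2). On supercontig 7 it held 34.3% (33.4 to 35.2) and 34.4% (34.1 to 34.7), or 34.3% ± 0.0811. The difference of 7 minus 6 was −15.4 percentage points in replicate 1 and 1.83 in replicate 2, so no direction held in both. With each position counted once the plus strand had 41.1% and 44.5% on supercontig 6 and 40.0% and 42.8% on supercontig 7.

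Taken window by window and summed, the minor strand had a smaller share on supercontig 6, and here the sums of the libraries were alike. It held 26.5% (interval 25.95 to 27.01) and 26.4% (26.1 to 26.7) of the reads of supercontig 6, or 26.4% ± 0.0785 (SD, n = 2), and 33.5% (32.6 to 34.4) and 34.4% (34.1 to 34.7) of those of supercontig 7, or 34.0% ± 0.634. The difference was larger than the spread of the libraries. On supercontig 5 the share was 28.2% and 29.6%, and over supercontigs 8 to 30 it was 16.5% and 24.7%.

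Spans also set the supercontigs apart, more in replicate 1 than in replicate 2, where the 23-nt shares were alike. On supercontig 7 the most frequent span was 23 nt, with 39.2% of the reads in replicate 1 (interval 38.3 to 40.1) and 38.0% in replicate 2 (37.7 to 38.3), or 38.6% ± 0.836 (SD, n = 2). On supercontig 6 the share of 23 nt was 23.2% in replicate 1 (22.7 to 23.7) and 38.4% in replicate 2 (38.1 to 38.8), or 30.8% ± 10.8. In replicate 1 supercontig 6 held 23.1% of its reads at 21 nt, the shortest span counted, against 10.8% on supercontig 7, and in replicate 2 these shares were 12.9% and 10.3%. Spans of 22 and 24 nt differed less, at 19.8% and 20.4% on supercontig 6 and 21.1% and 21.7% on supercontig 7 in replicate 1. A low share of 23 nt in replicate 1 was not particular to supercontig 6. Supercontigs 1 to 4 outside the dense region held 24.4% at 23 nt and 25.1% at 21 nt in replicate 1. In replicate 2 they held 32.3% and 14.7%. The 23-nt share was 29.9% and 37.8% over supercontigs 8 to 30, and 37.8% and 38.4% on supercontig 5. Reads with a score above 0 showed no split at 23 nt, which held 36.8% and 38.9% of them on supercontig 6 and 38.7% and 38.9% on supercontig 7. The intervals overlapped in each library (33.4 to 40.4 against 36.9 to 40.5 in replicate 1, and 37.6 to 40.2 against 38.2 to 39.5 in replicate 2).

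A small share of positions carried a large part of the reads of supercontig 6, which was not particular to it. Its 10 most abundant positions held 27.3% of its reads in replicate 1 and 12.2% in replicate 2, against 5.25% and 3.999% on supercontig 7. They held 2.30% and 2.04% on supercontig 5 and 20.4% and 5.10% over supercontigs 8 to 30. Ranked by reads, 52 positions held 50% of the reads of supercontig 6 in replicate 1 and 289 did so in replicate 2, or 1.17% and 2.18% of its positions. On supercontig 7 it took 775 and 965 positions, or 15.0% and 5.62%. Positions read once made up 63.9% and 55.2% of those of supercontig 6 and 67.8% and 51.8% of those of supercontig 7.

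The leading positions by the mean RPM of the libraries showed how a single place can differ between the files. On supercontig 6, bases 616 to 636 of the plus strand held 1804 reads in replicate 1 and 27 in replicate 2, bases 38320 to 38343 of the plus strand held 897 and 0, and bases 35211 to 35233 of the plus strand held 781 and 32, each with a score of 0. All 3 were far higher in replicate 1, and for scores of 0 this includes any difference in which place was listed. On supercontig 7, bases 10207 to 10229 of the minus strand held 73 and 515 reads with a highest score of 25. There, bases 5074 to 5098 of the minus strand held 51 and 377 reads and bases 9247 to 9271 of the minus strand held 0 and 361, both with a score of 0. These 3 positions were all higher in replicate 2. Positions found in both libraries made up 51.2% of the positions of replicate 1 on supercontig 6 and 60.3% on supercontig 7, and 17.1% and 18.2% of those of the larger replicate 2.

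The libraries differed by a similar factor all along supercontig 7 and by widely varying factors along supercontig 6. In the 20 dense windows of supercontig 7, replicate 2 had between 4.92 and 9.33 times the reads of replicate 1, with a median of 7.74. In the 26 of supercontig 6 the range was 0.464 to 10.3. A limit of 2, set after the values were seen, put 9 of them (34.6%) in a low class, against 18.8% of all dense windows, 13.9% of those on supercontigs 8 to 30, and 0 of 20 on supercontig 7 and 0 of 55 on supercontig 5. The windows nearest the limit had ratios of 1.29 and 1.53 inside and 2.09 and 2.94 outside. The other 17 dense windows of supercontig 6 had a median of 7.73, beside 7.74 on supercontig 7 and 7.73 on supercontig 5. As the limit took the lowest ratios out, it fixes part of this closeness. Across windows of log2(RPM + 1) the libraries had r = 0.98 and rho = 0.99 on supercontig 7 (27 windows) and r = 0.90 and rho = 0.82 on supercontig 6 (40 windows), given as a description, since windows of a library share its depth and are not replicates.

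The 9 low windows lay on bases 1 to 3000, 33001 to 37000, 38001 to 39000 and 65001 to 66000. They held 18036 of the 26658 reads of supercontig 6 in replicate 1, or 67.7%, and 17284 of 78877 in replicate 2, or 21.9%. Their most frequent span was 21 nt in replicate 1, with 28.8%, and 24 nt in replicate 2, with 25.3%, and 23 nt held 14.1% and 23.7%. Nearly all of their reads, 99.8% and 99.6%, had several places, so the library ratio of these windows could not be checked with reads of a single place. Their 10 most abundant positions held 40.3% and 30.9% of their reads. They were not free of a minor strand: it held 27.0% and 33.3% of their reads, and 6 of the 9 were both-strand windows. Low 23-nt shares were not particular to them among dense windows under the same limit. The 14 on supercontigs 8 to 30 held 21.6% and 19.6% at 23 nt, and their 10 top positions held 40.2% and 39.7%. For the 91 on supercontigs 1 to 4 outside the dense region of supercontig 3, these shares were 21.5% and 22.2%, and 20.7% and 20.7%.

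The other 17 dense windows of supercontig 6 had their maximum at 23 nt, as those of supercontig 7 did, with a somewhat larger share of their summed reads there. They held 42.4% and 42.5% of their reads at 23 nt and 11.02% and 11.2% at 21 nt, beside 39.2% and 38.1% at 23 nt and 10.8% and 10.3% at 21 nt in the dense windows of supercontig 7. The gap at 23 nt in summed reads was larger than the spread of the libraries, but it did not hold by window. The median window held 38.1% and 36.2% at 23 nt in the 17 windows of supercontig 6. On supercontig 7 it held 38.7% and 39.0%. Single windows varied more on supercontig 6, from 16.4% to 58.8% at 23 nt in replicate 2 against 32.1% to 50.2% on supercontig 7. Dense windows of supercontig 5 held 37.8% and 38.4% at 23 nt. In the 17 windows of supercontig 6 the plus-strand share was 28.0% and 25.5%, and 91.9% and 91.2% of the reads had several places. With the low windows and their length left out, the density of supercontig 7 over supercontig 6 was 2.88 in replicate 1 and 3.03 in replicate 2. As those windows were chosen by their library ratio, the choice itself fixes part of this closeness.

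**Figure D2:**
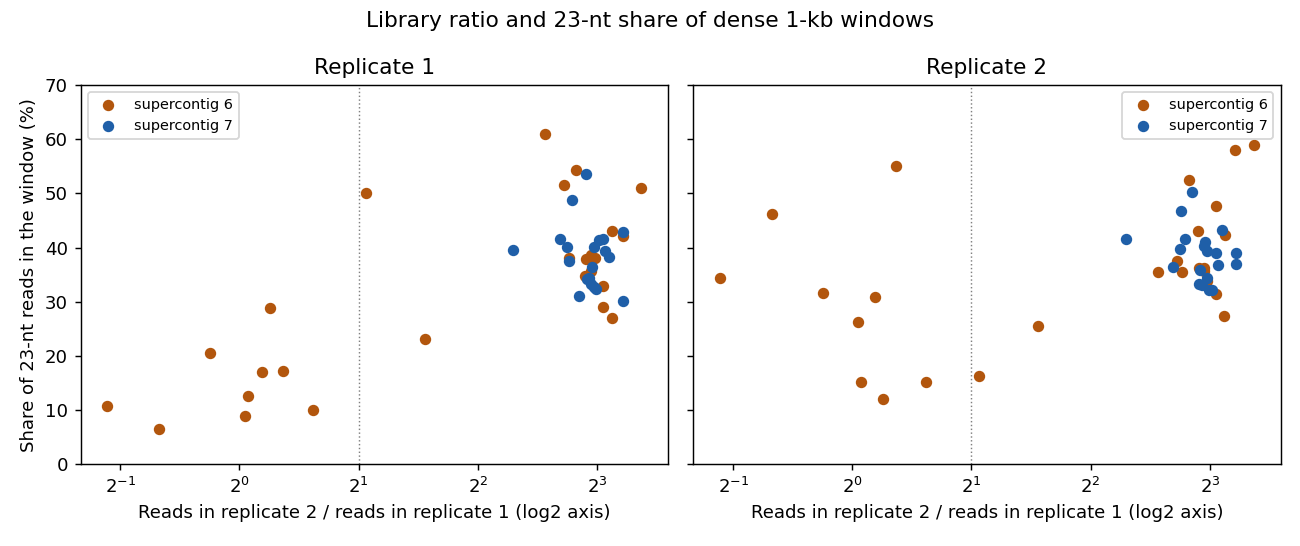
Each point is a dense window of 1 kb, placed by the reads of replicate 2 over those of replicate 1 (log2 axis) and by its share of 23-nt reads (%) in replicate 1 (left) or replicate 2 (right); the dotted line marks a ratio of 2. All 20 windows of supercontig 7 lie between 4.92 and 9.33, while those of supercontig 6 run from 0.464 to 10.3, and in replicate 1 the 9 windows under 2 have 23-nt shares of 6.53% to 28.8%.

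**Figure D3:**
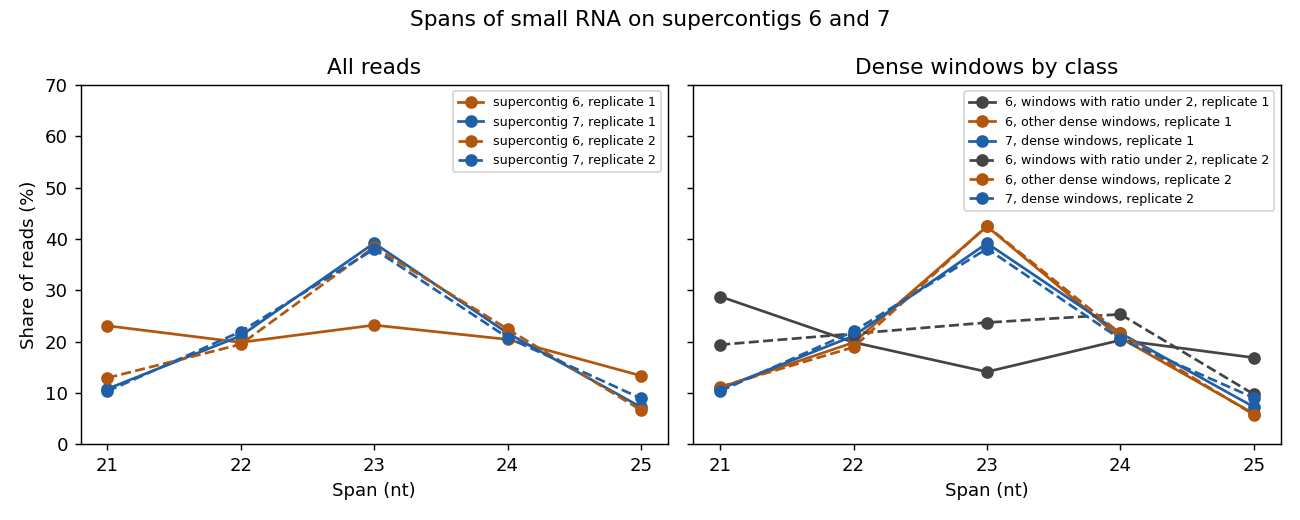
Share of reads (%) by span from 21 to 25 nt in each library (solid lines for replicate 1, dashed for replicate 2), for all reads of supercontigs 6 and 7 (left) and for their dense windows by class (right). Supercontig 6 lacks a clear maximum at 23 nt in replicate 1 (23.2%), while its dense windows outside the low class reach 42.4% and 42.5%.

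Reads of the same span on opposite strands most often had starts that differed by −2 nt, the geometry of a duplex with 3′ overhangs of 2 nt, on both supercontigs. Supercontig 6 had 55 such pairs of positions in replicate 1, against a mean of 35.4 ± 4.43 (SD over the 20 other differences within 10 nt), and 564 in replicate 2, against 388 ± 31.3. Supercontig 7 had 117 against 69.0 ± 12.98 and 1109 against 770 ± 62.9. The count at −2 nt was the highest of the 21 differences in all of these, the next being 43 and 453 on supercontig 6 and 98 and 866 on supercontig 7. The ratio to the neighbours was 1.56 and 1.45 on supercontig 6, or 1.51 ± 0.0715 (SD, n = 2), and 1.70 and 1.44 on supercontig 7, or 1.57 ± 0.181, so the supercontigs differed by less than the spread of the libraries.

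Taken span by span, the ratio was above 1 at each of 21, 22, 23, 24 and 25 nt on both supercontigs in both libraries, though with 3 to 24 pairs a span on supercontig 6 in replicate 1. In replicate 2 on supercontig 7 the count at −2 nt was the highest of its 21 differences at each of these spans, with ratios from 1.22 at 23 nt to 1.77 at 21 nt. In replicate 1 it was not the highest at 21 or 22 nt on supercontig 7, where −4 and 10 nt had the most pairs, or at 21, 22 and 25 nt on supercontig 6, where −6, 10 and −4 nt did or tied with it. On supercontig 6 in replicate 2 the −2 nt count led at 21, 22, 24 and 25 nt, but at 23 nt there were 179 pairs at −2 nt (ratio 1.26) and 185 at −7 nt. At 24 nt the ratio was 1.69 on supercontig 6 and 1.52 on supercontig 7. With reads of a single best place it was 1.61 in replicate 2 on supercontig 6, from 84 pairs, and 2.01 and 1.55 on supercontig 7, from 58 and 450 pairs. On supercontig 6 in replicate 1 only 6 such pairs were found, too few to read a ratio, and the 9 low windows held 6 and 34 pairs, against neighbouring means of 4.05 and 20.

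**Figure D4:**
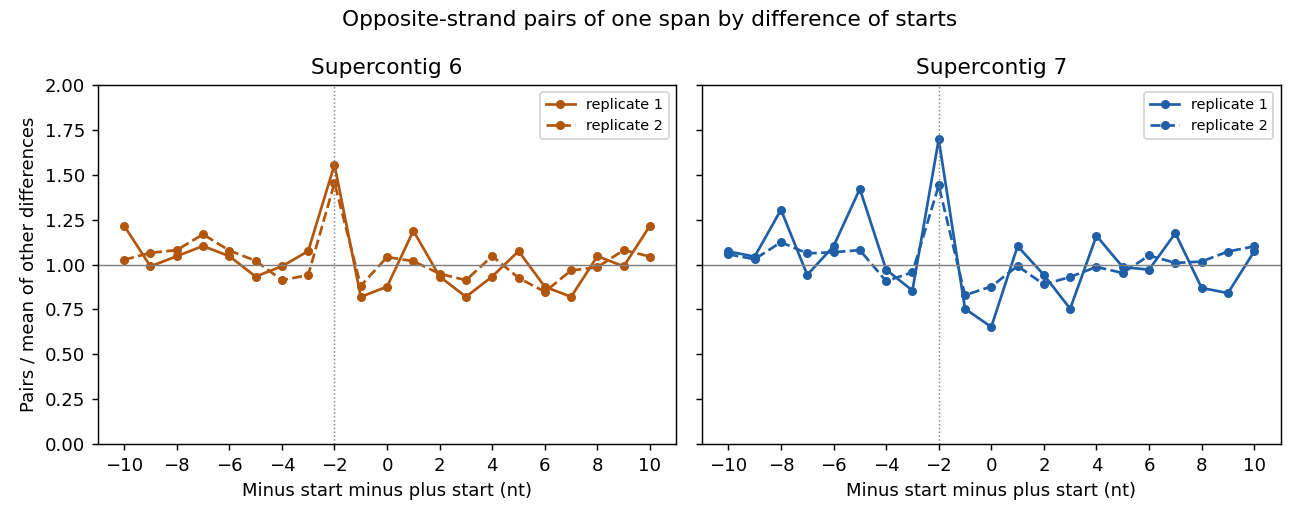
Number of opposite-strand pairs of the same span, relative to their mean at the 20 other differences within 10 nt, by the start of the minus-strand read minus that of the plus-strand read (nt), for supercontigs 6 and 7 in each library. The value at −2 nt (dotted line) is the highest in every curve, from 1.44 to 1.70.

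Parts of supercontig 6 resembled each other in their pattern of 5′ ends. The profile counted the 5′ ends of distinct positions on each strand, smoothed over 20 nt on a log scale, and overlapping pieces of 2 kb with at least 50 positions in each library were compared with every other place on either orientation. A match was called where r was 0.6 or more in both libraries at the same place, a rule chosen after the data were examined. On supercontig 6, 9 of 34 pieces had a match on the same supercontig (26.5%). The share was 16.6% of 289 pieces on supercontigs 4, 5 and 8 to 30, and on supercontig 7 it was 0 of 23. Bases 3001 to 5000 matched bases 4616 to 6615 in inverted orientation, which overlap the piece itself. Pieces overlap and a pair of places can be called from both ends, so these shares do not count separate places. The pieces starting at bases 41001, 42001, 44001, 45001 and 46001 were all called at shifts of 3684 to 3686 nt in either direction. These correlations run across bases of a library, which share its depth and strand balance, and no base sequence was compared.

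The closest pair of places overlapped the 2 densest windows of supercontig 6. Bases 41001 to 43000 matched bases 44686 to 46685, a shift of 3685 nt in the same orientation, with r = 0.86 in replicate 1 and 0.92 in replicate 2. More than 500 nt from there and from the piece itself r was at most 0.56 in each library. The first place held 1630 and 10815 reads with 8.16% and 10.0% on the plus strand, and the second held 1322 and 11775 reads with 13.2% and 9.61%. Together they were 11.1% and 28.6% of the reads of supercontig 6, nearly all from sequences with several places (99.4% to 99.8%). Of the distinct positions of the first place in replicate 1, 11.7% were listed again at the exact shift in replicate 1 and 28.1% in replicate 2.

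Other matching places lay about 34 kb apart. Bases 4001 to 6000 matched bases 37615 to 39614, a shift of 33614 nt (r = 0.91 and 0.73), and bases 1001 to 3000 matched bases 34844 to 36843, a shift of 33843 nt (r = 0.80 and 0.62). For the latter r reached 0.63 and 0.53 elsewhere on the supercontig, so that match stands out less. The places of the first pair had different library ratios. Bases 4001 to 6000 held 920 and 1968 reads and bases 37615 to 39614 held 2302 and 1163, so the library ratio was 2.14 at one place and 0.505 at the other, and 0.972 over their sum. Both ratios are of raw reads and lie under the 2.76-fold difference in depth, so in RPM both places were lower in replicate 2.

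**Figure D5:**
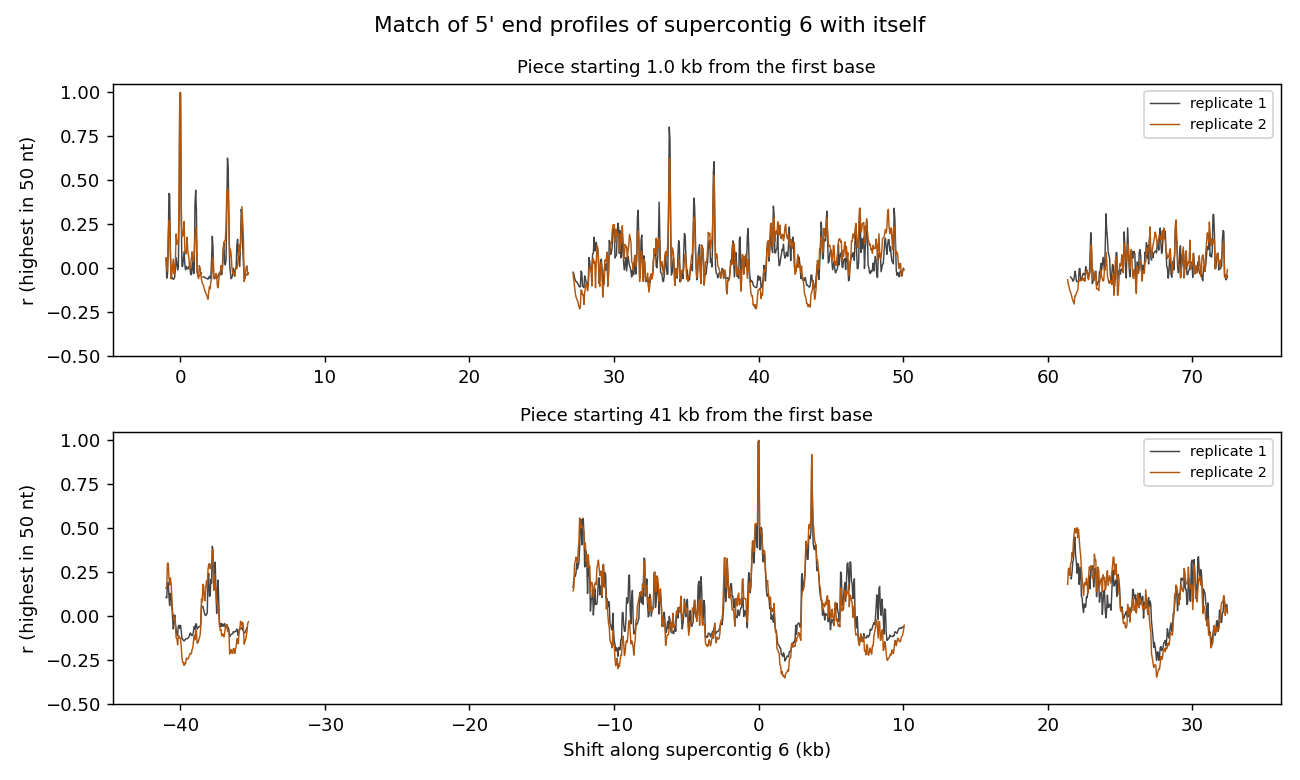
Pearson's r between the 5′ end profile of a 2-kb piece of supercontig 6 and the profile at each shift along the same supercontig (kb; highest value per 50 nt), for the pieces starting at base 1001 (top) and base 41001 (bottom) in each library. Besides the piece itself at a shift of 0, the highest peaks are at 33843 nt (r = 0.80 and 0.62) and 3685 nt (r = 0.86 and 0.92).

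Searched over all supercontigs, 14 of the 34 pieces of supercontig 6 (41.2%) and 3 of the 23 of supercontig 7 (13%) had a match. Pieces of other supercontigs were not searched in this way, so how often a piece matches by this rule is not known. Here too pieces overlap, and matches are not separate places. Of the 12 pieces of supercontig 6 that held a low window 6 matched, 5 of them best on supercontig 4. Of the other 22 pieces 8 matched and 0 did so best on supercontig 4. These 8 include bases 3001 to 5000, whose matched place overlaps the piece itself. Bases 1 to 2000 matched bases 120046 to 122045 of supercontig 4 (r = 0.95 and 0.86), where the library ratio was 0.945, beside 0.833 on supercontig 6. Bases 1001 to 3000 matched bases 153073 to 155072 of supercontig 4 (r = 0.93 and 0.80), with ratios of 2.06 there and 1.07 on supercontig 6, and bases 64001 to 66000 matched bases 103544 to 105543 (r = 0.89 and 0.77), with ratios of 1.12 there and 1.604 on supercontig 6. The 5 such matches were not 5 separate places. Bases 35001 to 37000 matched bases 153234 to 155233 of supercontig 4, which overlap the place matched by bases 1001 to 3000. Over the 5 matches the ratio was 0.945 to 2.07 on supercontig 4 and 0.833 to 1.604 on supercontig 6, beside a median of 7.73 in the other dense windows, but these pieces were picked for holding a low window. Their strands were less alike: bases 33001 to 35000 had plus-strand shares of 22.9% and 27.0%, against 71.7% and 48.6% on supercontig 4, and bases 1001 to 3000 had 44.2% and 41.4%, against 45.1% and 81.8%. Bases 49001 to 51000 of supercontig 6 matched bases 1579760 to 1581759 of supercontig 3 in inverted orientation (r = 0.81 and 0.67), with library ratios of 7.70 and 0.286. Pieces of supercontig 6 matched supercontig 7 in 0 of 34 cases and pieces of supercontig 7 matched supercontig 6 in 0 of 23.

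The matches of supercontig 7 were weaker. Bases 14001 to 16000 matched bases 4237801 to 4239800 of supercontig 1 (r = 0.60 and 0.77), where the library ratio was 7.21, beside 7.33 on supercontig 7, and the plus-strand shares were 46.5% and 45.7%, beside 45.1% and 40.0%. Bases 3001 to 5000 matched bases 1788576 to 1790575 of supercontig 1 in inverted orientation (r = 0.61 and 0.72), with library ratios of 8.03 on supercontig 7 and 2.25 there. Bases 22001 to 24000 matched bases 508 to 2507 of supercontig 3 (r = 0.61 and 0.64), but those bases held 145062 and 55491 reads against 278 and 2429, a library ratio of 0.383 against 8.74. That match and the one of supercontig 6 with supercontig 3 joined places whose library ratios were far apart.

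The 3 densest windows of each supercontig by mean RPM were of both kinds on supercontig 6. Bases 42001 to 43000 held 1817 and 4347 RPM and bases 46001 to 47000 held 1405 and 4718 RPM, with plus-strand shares of 7.61% and 9.20%, and of 14.3% and 10.0%. Bases 1001 to 2000, a low window, held 3773 and 1435 RPM, and its plus-strand share was 39.5% and 39.0% and its 23-nt share 12.6% and 15.3%. The first 2 were higher in replicate 2 and the low window in replicate 1. On supercontig 7, bases 10001 to 11000 held 1635 and 4092 RPM, bases 5001 to 6000 held 1181 and 3355 RPM, and bases 4001 to 5000 held 1084 and 3247 RPM. These were all higher in replicate 2, with a plus-strand share of 27.0% to 43.7% and with several places for 42.0% to 59.6% of their reads.

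By its islands, supercontig 6 changed along its length. Bases 1 to 6000 held 8139 and 8134 reads, with plus-strand shares of 60.4% and 58.1% and 23-nt shares of 14.3% and 26.3%. Bases 30001 to 39000 held 10725 and 20570 reads, with plus-strand shares of 54.2% and 39.2%. Bases 40001 to 52000 held 4262 and 32835 reads, with plus-strand shares of 13.8% and 13.2% and 23-nt shares of 45.1% and 45.6%. Summed over this island, these shares were alike in both libraries. Its densest windows were not alike in span. The 23-nt share was 51.5% and 37.6% on bases 42001 to 43000 and 42.2% and 57.9% on bases 46001 to 47000. Bases 64001 to 75435 held 3531 and 17320 reads, with plus-strand shares of 54.5% and 49.3% and 23-nt shares of 24.6% and 35.8%. Supercontig 7 had 2 parts. Its bases 1 to 18000 held 91.7% and 91.4% of its reads, with plus-strand shares of 35.4% and 36.1%. Its bases 22001 to 29126 held 899 and 7024 reads, with plus-strand shares of 21.9% and 16.0% and 23-nt shares of 40.9% and 38.8%. Both parts of supercontig 7 had library ratios near each other, 7.50 and 7.81, while the islands of supercontig 6 had 0.999, 1.92, 7.70 and 4.91 in order from its first base.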

How the data were processed

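Each library's deposited file gives mapped sequences as lines with a numbered supercontig, start, end, strand, name and mapping score. BWA is named in the submitters' processing notes, with a version, settings and a build not given in the sources used here. The mapping score in the deposited files runs from 0 to 37. The name in the deposited files joins a rank with a number that never rises with rank, read here as raw reads, with no normalization or pooling recorded. Lines with a span of 21 to 28 nt were kept, positions were counted from 1 and reads were placed by their leftmost base. The RPM values were computed from these, per 1000000 reads outside the first 37000 bases of supercontig 3. Python 3.11.15, NumPy 2.4.6, pandas 2.3.3 and SciPy 1.17.1 were used. Pair counts and profile matches were checked on simulated data. The members, measures and lists were chosen with earlier results of these data known. The named windows and positions were the 3 with the highest mean RPM on each supercontig, and any other place was named after its values were seen. The library-ratio limit and the profile matches were added after the data were examined. The gene table at hand is of another assembly (SJ5) and was not used, and no sequences were at hand. Alternatives were mapping score, counting each position once, the top positions, positions in both libraries, scaling, density limit, window size, covered length and leaving out each library.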

Additional observations from a re-analysis of the deposited data

Results flagged for a closer look

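Reads shorter than the labelled sizes, which no comparison used, were present on both supercontigs. Supercontig 6 held 6 reads under 21 nt in replicate 1 and 29 in replicate 2, and supercontig 7 held 20 in replicate 2. Each of these exceeds the 3 reads that a count of 0 allows, and at most 0.0368% of the reads of a supercontig were that short. No control library was at hand.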

How the results depend on the processing

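No paired analysis was possible because the series has 1 group. Values below are means of the 2 libraries, in the order supercontig 6 and then 7 where both are given, and the cause of each shift was not tested unless the setting itself gives it. Over bases covered by any read the density of 7 over 6 fell to 0.906 from 1.87, the other direction. With scores above 0 it was 10.3, the minor-strand share was 27.1% and 35.2%, the plus share of supercontig 7 was 44.04%, pair ratios were 1.66 and 1.78, and dense windows numbered 8 and 10. With each position counted once the density ratio was 3.19, the minor-strand share 37.8% and 40.5%, the share of score 0 was 86.6% and 71.5%, and on supercontig 7 the plus share was 41.4% and the 23-nt share 30.2%. Weighting pairs by reads gave ratios of 1.58 and 1.82. Without the 10 top positions the minor-strand share of supercontig 6 was 28.4%, and supercontig 7 had a plus share of 34.6%, a 23-nt share of 37.4% and a share of score 0 of 72.4%. With positions of both libraries the minor-strand shares were 22.03% and 30.04%, pair ratios 1.70 and 2.06, and supercontig 7 had a plus share of 31.5%, a 23-nt share of 42.8% and a share of score 0 of 63.8%. Windows of 500 bases gave minor-strand shares of 18.5% and 31.3%. Without the 9 low windows of supercontig 6, a setting added after the data were seen, its plus share was 27.2%, its minor-strand share 24.95%, its 23-nt share 42.4% and its share of score 0 91.4%. Values not named here stayed within 1 SD of the libraries or, for counts of windows, within 1.5 times. With 2 libraries, leaving either out stays within 1 SD by construction and says nothing of stability: the plus share of supercontig 6 ran from 32.6% to 49.7%, its 23-nt share from 23.2% to 38.4% and the density ratio from 1.06 to 2.69. In each setting run, the summed minor-strand share was lower and the share of score 0 higher on supercontig 6. Medians of dense windows gave the minor-strand share no direction that held in both libraries. Replicate 1 limits the pairs of supercontig 6, with 741 reads of a single place.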
